A study of Mus musculus with 21 samples.

Results

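Tau and the proteins that share its work on the microtubule were followed in the cortex of mice after repeated head impacts, together with the enzymes that phosphorylate tau. The genes were chosen by name, with earlier results of these data known. They were Mapt, which encodes tau, and the microtubule-associated proteins Map1a, Map1b, Map2, Map4 and Map6. The others were the kinases Gsk3b and Cdk5, and the Cdk5 activator Cdk5r1. All 9 genes named were found, among the 5544 genes of the deposited table. RNA was taken from the cortex of male C57BL/6 mice (C57Bl/6J in the methods) of 12 weeks, with 1 library per mouse, and the table names both groups as WT (wild type). The 11 HF-HI (high-frequency head impact) mice received 5 impacts per day for 6 days under isoflurane, 30 in all, and were sampled 24 h after the final impact. The 10 sham mice had the same handling and anaesthesia without impacts, so by design the groups differ in impact and not in anaesthesia.

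Microtubules are polymers of tubulin that carry transport along axons and dendrites, and microtubule-associated proteins bind along them and set how stable they are. Tau lies mostly in axons and MAP2 in dendrites and cell bodies of neurons. Phosphorylation by kinases such as GSK3-beta and CDK5 lowers the affinity of tau for the microtubule, and heavily phosphorylated tau collects in the tangles of the tauopathies, among them chronic traumatic encephalopathy. The libraries measure RNA per gene, and neither protein, phosphorylation nor the splice forms of tau were measured in them.

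The values are variance-stabilized and lie on a log2 scale, where a step of 1 is a doubling. Across libraries they ran from 4.59 to 17.7, and how many reads each library holds is unknown. Relative depth, with the median library at 1 and read from the spacing of the values, was 0.580 to 1.26 in sham and 0.548 to 1.64 in HF-HI (permutation test, two-sided, p = 0.105). A property of the libraries touched every difference below: the HF-HI minus sham difference tended to be higher in genes rich in G and C than in genes poor in them. For each library, the deviation of each gene from its mean over all libraries was set against GC content. The slope, in log2 per 10% GC, was -0.23 to 0.0058 in sham and -0.039 to 0.16 in HF-HI (difference 0.20, permutation test, two-sided, 100000 resamples, p = 4e-05). Each difference of the 9 genes is therefore given for the values as deposited and again after the GC trend of each library was removed, which would also take away any true difference that follows GC content. As the slope differed between the groups, impact and the GC trend cannot be told apart here, and the part of the trend in the results was not tested.

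The level of the 9 genes per kilobase of exon, as the mean of the sham libraries, fell in the order Map2 (10.7), Map1b (10.5), Map1a (9.997), Mapt (9.47), Cdk5r1 (9.41), Gsk3b (8.61), Cdk5 (8.21), Map4 (8.13) and Map6 (6.23), all on the log2 scale per kilobase. Neighbours in this order whose sham libraries overlapped were Map2 and Map1b, Map1b and Map1a, Mapt and Cdk5r1, and Cdk5 and Map4. The other neighbours were separated in every sham library. In HF-HI the first place changed hands, with Map1b at 10.8 and Map2 at 10.6.

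Each of the 9 genes passed the test between groups (limma, Benjamini-Hochberg adjusted p under 0.05 over all genes). Of them, 7 were higher in HF-HI and 2, Map2 and Cdk5, were lower. Over all genes 66.3% passed, 32.6% higher and 33.6% lower, so that a gene taken at random would often have passed too. Because the 9 genes were chosen with earlier results of these data known, their count is not an independent comparison with that share. The median difference of the 9 genes was 0.15 on the log2 scale, beside -0.0086 for all genes. With the GC trend removed these medians were 0.11 and -0.0096, and with the GC and length trends removed the 9 genes had a median of 0.047. Of the 9, 7 lie above the median GC content of all genes. In 4 of the 9, Map1a, Map6, Gsk3b and Map1b, the difference was at least 0.25, against 25.8% of all genes. With the GC trend removed 6 of the 9 passed, 5 higher and 1 lower, beside 60.2% of all genes, 29.2% higher and 31% lower, and Mapt, Map2 and Cdk5r1 no longer passed.

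The bases before the start site are shown for Map1a, Map1b and Gsk3b, 3 of the 4 genes with a difference of at least 0.25, all higher in HF-HI, to show the sequence before their start. They come from RefSeq on GRCm38.p6, where 5 of the 9 genes had an entry, and each line gives the 250 bases up to the start, 5′ to 3′ on the strand of the gene. Capitals mark matches on either strand to the GC box GGGCGG or the TATA box TATAAA, the motifs found in these 3 among 4 searched. The windows lie at chr2:121289352-121289601 on the plus strand for Map1a, chr13:99516603-99516852 on the minus strand for Map1b and chr16:38088751-38089000 on the plus strand for Gsk3b.
Map1a: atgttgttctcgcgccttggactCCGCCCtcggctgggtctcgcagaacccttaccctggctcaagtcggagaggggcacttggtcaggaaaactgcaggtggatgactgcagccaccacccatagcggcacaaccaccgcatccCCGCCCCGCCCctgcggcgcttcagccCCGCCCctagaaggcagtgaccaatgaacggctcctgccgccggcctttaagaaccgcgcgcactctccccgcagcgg
Map1b: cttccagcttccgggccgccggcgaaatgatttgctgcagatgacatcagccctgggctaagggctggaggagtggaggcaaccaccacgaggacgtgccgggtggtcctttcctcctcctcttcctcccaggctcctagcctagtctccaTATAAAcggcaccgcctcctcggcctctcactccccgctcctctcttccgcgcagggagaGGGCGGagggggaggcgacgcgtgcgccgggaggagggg
Gsk3b: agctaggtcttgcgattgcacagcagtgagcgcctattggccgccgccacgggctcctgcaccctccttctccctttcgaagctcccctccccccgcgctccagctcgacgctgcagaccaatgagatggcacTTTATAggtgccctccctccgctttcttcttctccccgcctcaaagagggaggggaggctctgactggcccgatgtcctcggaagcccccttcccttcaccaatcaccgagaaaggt
The Map1a window held 4 GC boxes, a pair of which share a base. Map1b had 1 GC box and 1 TATA box, and Gsk3b had 1 TATA box and no GC box. Among all 32851 promoter windows of this length, 32.7% held a GC box and 12.4% a TATA box. Neither the cyclic AMP response element TGACGTCA, present in 1.55% of windows, nor the E-box CACGTG, in 6.02%, was found in the 3 windows, and no motif was shared by all 3. These matches describe letters only.

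Tau itself was modestly higher. Mapt (ENSMUSG00000018411, chr11:104231390-104332090 on the plus strand of GRCm38, 12 annotated transcripts over 7531 exonic bases, 53.7% GC) had a lowest, median and highest value of 12.31, 12.36 and 12.47 in sham and of 12.35, 12.54 and 12.62 in HF-HI. The groups overlapped, with 8 of 11 HF-HI libraries above every sham library and 10 of 11 above the sham median. The difference was 0.15 (SE 0.0347, 95% confidence interval 0.075 to 0.22, adjusted p = 7.98e-04), a rise of 10.7%. Genes of similar GC content (1 of 10 equal classes of genes by GC content) had a median difference of 0.10. With the GC trend removed the difference for Mapt was 0.015 (interval -0.049 to 0.080, adjusted p = 0.687), so that a change beyond 0.080 in either direction lay outside the interval. With the length trend removed as well it was -0.014 (adjusted p = 0.711).

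**Figure D1:**
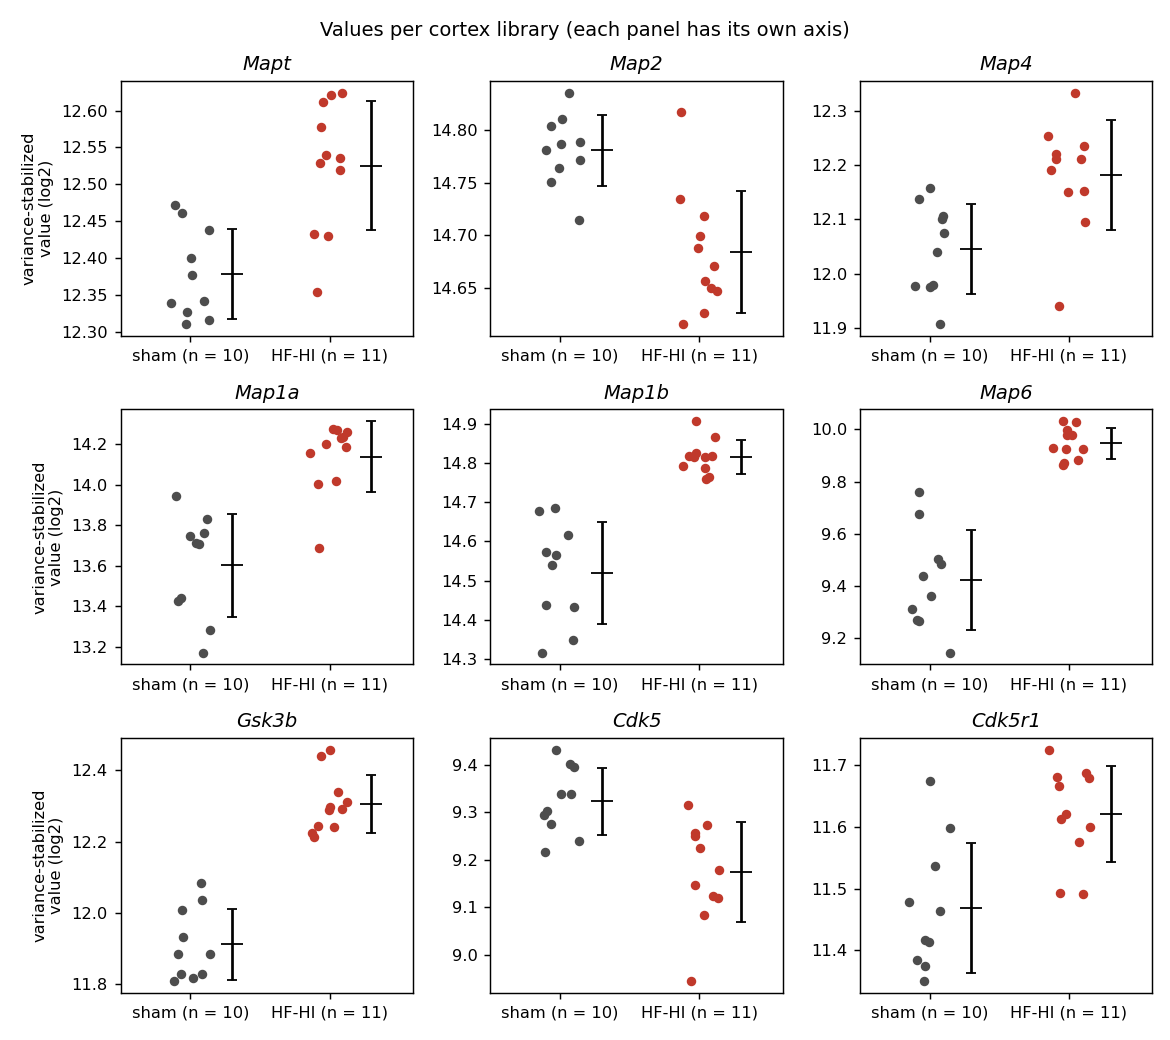
Variance-stabilized values (log2, vertical axis, a separate range in each panel) of the 9 genes in each cortex library, 10 sham and 11 HF-HI, where each point is 1 mouse and the bar is the group mean with its SD. Map1b, Map6 and Gsk3b have no overlap between the groups, Mapt has 8 of 11 HF-HI libraries above every sham library, and Map2 and Cdk5 lie lower in HF-HI.

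Map2, the microtubule-associated protein of dendrites, went the other way. Map2 (ENSMUSG00000015222, chr1:66175273-66442583, plus strand, 16449 exonic bases, 43.6% GC) ran from 14.71 through a median of 14.78 to 14.84 in sham and from 14.62 through 14.67 to 14.82 in HF-HI. In 8 of 11 HF-HI libraries it lay below every sham library. It was lower by a log2 difference of -0.097 (SE 0.0250, interval -0.15 to -0.045, adjusted p = 0.00175), or -6.48%, in a gene whose sham libraries had an SD of 0.0336. Its class of GC content had a median of -0.074, and with the GC trend removed the difference was -0.028 (adjusted p = 0.321). With both the GC and the length trend removed it was -0.095 and passed again (adjusted p = 0.0028).

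Map4, a microtubule-associated protein found widely outside neurons as well, was higher. Map4 (ENSMUSG00000032479, chr9:109931460-110083955, plus strand, 15143 exonic bases, 48.7% GC) had values of 11.91, 12.06 and 12.16 in sham and 11.94, 12.21 and 12.33 in HF-HI, for the lowest, the median and the highest. In 7 of 11 HF-HI libraries it was above every sham library, and the others lay within the sham range. The difference was 0.14 (SE 0.0405, interval 0.052 to 0.22, adjusted p = 0.00542), and 0.11 with the GC trend removed (adjusted p = 0.0178). Centring the libraries on their medians took it to 0.083 (adjusted p = 0.0597), and removing the length trend with the GC trend to 0.043 (adjusted p = 0.287), neither past the threshold.

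The largest difference among the 9 genes was that of Map1a, a MAP1 family protein of the mature neuron. Map1a (ENSMUSG00000027254, chr2:121289600-121310832, plus strand, 12166 exonic bases, 54.8% GC) had values of 13.17, 13.71 and 13.95 in sham and 13.69, 14.20 and 14.27 in HF-HI. In 10 of 11 HF-HI libraries it was above every sham library, and HF-HI 9, at 13.69, was the exception. The difference of 0.54 (SE 0.0871, interval 0.36 to 0.72, adjusted p = 1.31e-05) is 1.45-fold. Removal of the GC trend left 0.38 (adjusted p = 4.73e-05), and removal of the GC and length trends 0.33 (adjusted p = 1.35e-04).

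Map1b, its relative most abundant in growing axons, also rose, by 0.30 (SE 0.0408, interval 0.21 to 0.38, adjusted p = 1.57e-06) or 1.23-fold, and the groups did not overlap. Map1b (ENSMUSG00000052727, chr13:99421446-99516540, minus strand, 15846 exonic bases, 47.8% GC) ran from 14.32 through 14.55 to 14.69 in sham and from 14.76 through 14.82 to 14.91 in HF-HI. The sham libraries were the more spread, with an SD of 0.130 beside 0.0427 in HF-HI. Its GC content is close to the median of all genes, 47.6%, and with the GC trend removed the difference was 0.29 (adjusted p = 2.22e-06).

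Map6, also called STOP, which protects microtubules from cold and drugs, rose 1.44-fold. Map6 (ENSMUSG00000055407, chr7:99267447-99337137, plus strand, 9152 exonic bases, 52.9% GC) had values of 9.14, 9.40 and 9.76 in sham and 9.86, 9.93 and 10.03 in HF-HI, again without overlap. It was the lowest of the 9 per kilobase. Its difference was 0.52 (SE 0.0577, interval 0.41 to 0.64, adjusted p = 7.68e-08) and with the GC trend removed 0.41 (adjusted p = 3.18e-07), and here too the SD was larger in sham, 0.192 beside 0.0604. Together Map1b, Map6 and Gsk3b made 3 genes of 9 without overlap, where 13.5% of all genes had none.

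**Figure D2:**
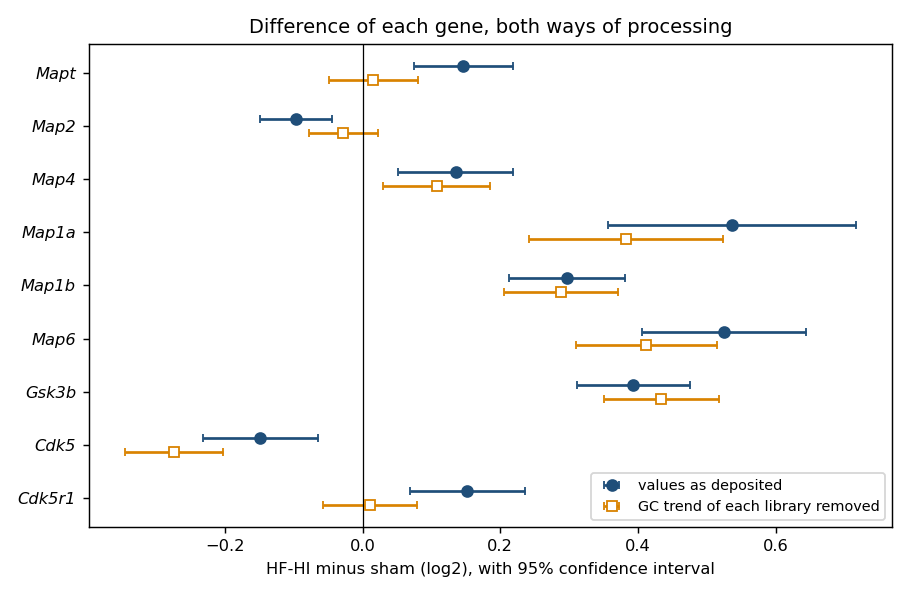
Difference between HF-HI and sham (log2, horizontal axis) for each of the 9 genes with its 95% confidence interval, for the values as deposited (filled circles) and with the GC trend of each library removed (open squares). Mapt, Cdk5r1 and Map2 move to an interval that includes 0, while Map1a, Map6, Gsk3b, Map1b and Map4 stay above it and Cdk5 moves from -0.15 to -0.27.

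Of the kinases, Gsk3b, which phosphorylates tau at many sites and is held back by Akt, was higher in every HF-HI library than in any sham library. Gsk3b (ENSMUSG00000022812, chr16:38089001-38246084, plus strand, 9831 exonic bases, 45.2% GC) ran from 11.81 through 11.89 to 12.08 in sham and from 12.21 through 12.29 to 12.46 in HF-HI. The difference was 0.39 (SE 0.0397, interval 0.31 to 0.48, adjusted p = 2.32e-08), 1.31-fold. Genes of its class of GC content had a median of -0.076, so that it moved against its GC neighbours, and with the trend removed the difference was 0.43 (adjusted p = 8.75e-09).

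Cdk5, a kinase that acts in neurons after division, was lower while its activator was higher in the values as deposited. The rise of the activator did not pass with the GC trend removed. Cdk5 (ENSMUSG00000028969, chr5:24418241-24423530, minus strand, 2168 exonic bases, 53.4% GC) had values of 9.22, 9.32 and 9.43 in sham and 8.94, 9.18 and 9.32 in HF-HI. All 11 HF-HI libraries lay below the sham median, 6 of them below every sham library. The difference was -0.15 (SE 0.0405, interval -0.23 to -0.065, adjusted p = 0.00266), or -9.78%. Genes of its class of GC content had a median of 0.10, and with the GC trend removed the difference was -0.27 (interval -0.34 to -0.20, adjusted p = 5.86e-07). With the GC trend alone removed the groups did not overlap, which brought the genes without overlap to 4 of 9, beside 12.7% of all genes after that step. With the GC and length trends removed the difference was -0.14 (adjusted p = 0.0015), close to that of the deposited values.

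Cdk5r1 encodes p35, which CDK5 needs to be active and which calpain cuts to p25. Cdk5r1 (ENSMUSG00000048895, chr11:80477023-80481184, plus strand, 4162 exonic bases, 54.2% GC) ran from 11.35 through 11.44 to 11.67 in sham and from 11.49 through 11.62 to 11.73 in HF-HI. All 11 HF-HI libraries were above the sham median and 4 above every sham library. The difference was 0.15 (SE 0.0403, interval 0.069 to 0.24, adjusted p = 0.00213), beside a median of 0.17 in its class of GC content, and with the GC trend removed it was 0.011 (interval -0.058 to 0.079, adjusted p = 0.794). With the GC and length trends removed it was 0.047 (adjusted p = 0.224).

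**Figure D3:**
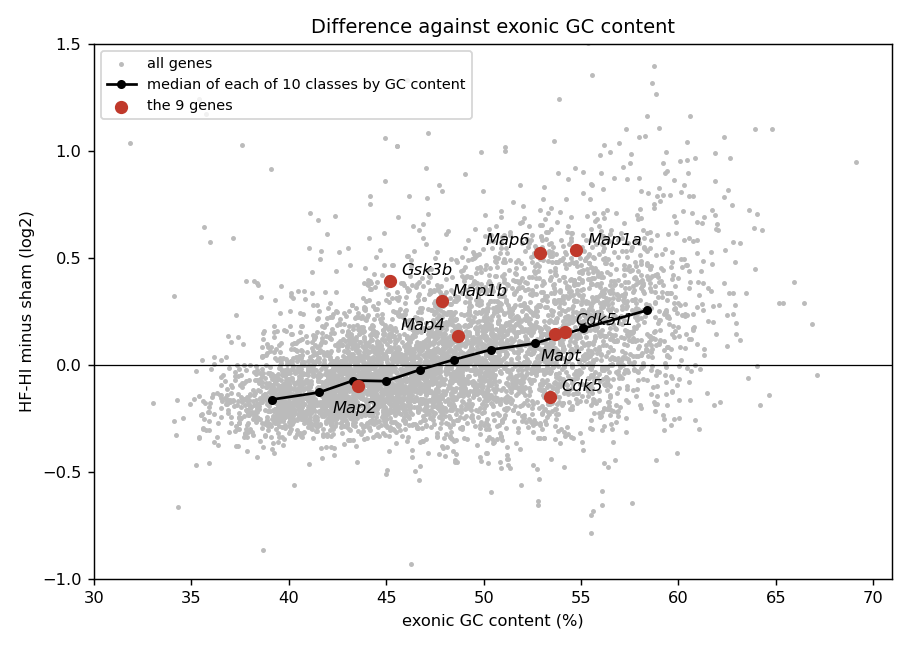
Difference between HF-HI and sham (log2, vertical axis) of each gene against its exonic GC content (percent, horizontal axis), with all genes in grey, the median of each of 10 equal classes by GC content as a line and the 9 genes in red; 9 genes lie outside the plotted range. Mapt and Cdk5r1 lie on the line and Map2 close to it, while Gsk3b, Map1b, Map6, Map1a and Map4 lie above it and Cdk5 below.

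Because a shift of a whole library cancels when one gene is set against another in the same mouse, 7 pairs of related role were compared (permutation test, two-sided, 100000 resamples, adjusted over the 7 pairs). The activator Cdk5r1 exceeded its kinase Cdk5 by 2.02, 2.11 and 2.38 in sham (lowest, median, highest) and by 2.18, 2.45 and 2.66 in HF-HI, on the log2 scale. The excess was larger in HF-HI by 0.30 (SE 0.0521, adjusted p = 1.4e-04), and by 0.28 with the GC trend removed (adjusted p = 1.92e-04). The 2 genes have nearly the same GC content but differ in length, and with the GC and length trends removed the excess was larger by 0.19 (adjusted p = 0.0046). The pair was chosen after each gene's own direction was known, and all 7 pairs with earlier results of these data known.

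Set against tau, Cdk5 was lower by a further -0.29 (SE 0.0396, adjusted p = 1.4e-04, and -0.29 with the GC trend removed, adjusted p = 7e-05), with values of -3.26, -3.05 and -2.95 in sham and -3.49, -3.35 and -3.16 in HF-HI. With the GC and length trends removed the difference was smaller, -0.13 (adjusted p = 0.0139). Gsk3b gained on Mapt, from -0.64, -0.48 and -0.26 in sham to -0.35, -0.24 and -0.057 in HF-HI. That gain was 0.25 (SE 0.0505, adjusted p = 3.5e-04), 0.42 with the GC trend removed (adjusted p = 3.5e-05) and 0.40 with the GC and length trends removed (adjusted p = 3.5e-05). Relative to tau RNA, these 2 kinases moved in opposite directions in all 3 of these ways of processing. Their own differences were already opposite in each, so these pairs are no separate evidence.

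Map2 lost ground to Mapt by -0.24 (SE 0.0464, adjusted p = 4.37e-04), from 2.30, 2.41 and 2.48 in sham to 2.002, 2.13 and 2.46 in HF-HI. The 2 genes lie far apart in GC content, and with the trend removed the loss was -0.043 (adjusted p = 0.303). Between Map4 and Mapt the groups differed by -0.011 (SE 0.0397, adjusted p = 0.786), which did not pass and was 0.0083 without sham 4 and 0.0033 without sham 8. With the GC trend removed it was 0.092 (adjusted p = 0.0611).

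Map1a gained on Map1b by 0.24 (SE 0.102, adjusted p = 0.041), from -1.37, -0.88 and -0.55 in sham to -1.18, -0.62 and -0.53 in HF-HI. This call was lost with the GC trend removed (0.095, adjusted p = 0.303) and in 10 of 21 comparisons that left out 1 library, those without sham 4, 5, 6 or 7 and without HF-HI 2, 4, 5, 6, 7 or 10, where the gain was between 0.19 and 0.24. Gsk3b gained on its paralogue Gsk3a, which encodes the other form of the kinase, by 0.20 (SE 0.0895, adjusted p = 0.0431), from 2.12, 2.52 and 2.73 in sham to 2.43, 2.60 and 3.12 in HF-HI. Here 12 of 21 such comparisons missed the threshold, those without sham 1, 2, 8, 9 or 10 and without HF-HI 2, 4, 6, 8, 9, 10 or 11, with gains between 0.15 and 0.21, while with the GC trend removed the gain was 0.50 (adjusted p = 3.5e-05). None of the 7 pairs separated the groups without overlap.

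**Figure D4:**
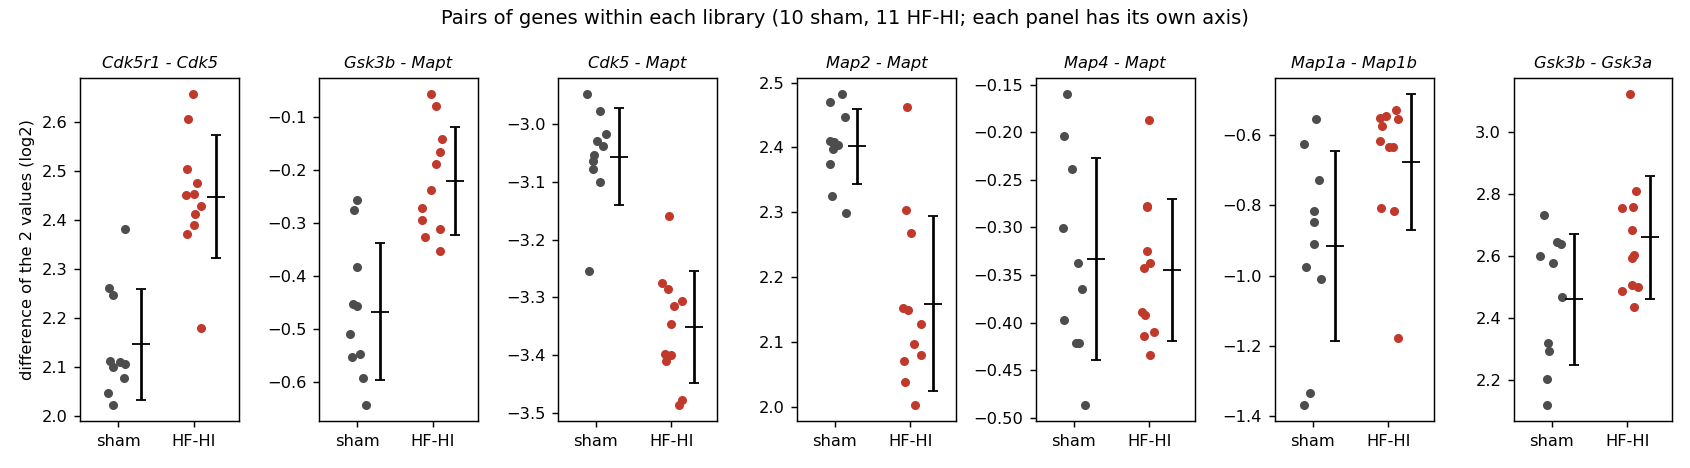
Value of one gene minus that of the other in each library (log2, vertical axis, a separate range in each panel) for the 7 pairs, 10 sham and 11 HF-HI mice, with the group mean and SD. Cdk5r1 minus Cdk5 and Gsk3b minus Mapt are higher in HF-HI, Cdk5 minus Mapt and Map2 minus Mapt lower, and Map4 minus Mapt differs by -0.011, with groups that overlap.

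The mice differed in how many of the 9 genes left the sham range. In HF-HI 5 all 9 lay outside it, while in HF-HI 9 only 4 did, with Mapt, Map2, Map4, Map1a and Cdk5r1 inside. The other 9 HF-HI libraries had 1 to 3 genes inside. HF-HI 9 also had the lowest GC slope of its group, -0.039 beside 0.013 to 0.16 in the others, and a relative depth of 0.572. Depth was lower still in HF-HI 11, at 0.548, which had 1 gene inside the sham range. Without HF-HI 9 the differences were 0.16 for Mapt, -0.11 for Map2, 0.16 for Map4, 0.58 for Map1a, 0.29 for Map1b, 0.52 for Map6, 0.39 for Gsk3b, -0.13 for Cdk5 and 0.15 for Cdk5r1, all still past the threshold. All 9 genes passed in each of the 21 fits that left out 1 library.

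Within the groups, the 9 genes did not vary as a unit from mouse to mouse. Of their 36 pairs, 22 had a positive correlation of the deviations from the group means over 21 libraries, with a median r of 0.13, from -0.71 for Map2 and Map4 to 0.62 for Map6 and Cdk5r1. These are descriptions, and the points share libraries whose depth and GC slope vary. Over all genes, the 5 whose deviations followed those of Mapt most closely were Nol4l (r = 0.75), Nfasc, an adhesion molecule of the axon initial segment (r = 0.73), Nwd1 (r = 0.72), Baz2a (r = 0.72) and Smg6, a nuclease of nonsense-mediated decay (r = 0.72), of which Nol4l, Nfasc and Baz2a were higher in HF-HI in the values as deposited. The closest for the others was Rab27b for Map2 (r = 0.78), the creatine transporter Slc6a8 for Map4 (r = 0.88), Cabin1, a calcineurin inhibitor, for Map1a (r = 0.97), App, the amyloid precursor, for Map1b (r = 0.96), Tmem191c for Map6 (r = 0.85), Arf3 for Gsk3b (r = 0.80), the peroxiredoxin Prdx6 for Cdk5 (r = 0.79) and Fbxo41 for Cdk5r1 (r = 0.83).

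Further genes of the pathway were read from 9 lists, of which 99 of 135 genes listed were tested. Of these, 41 were higher and 28 lower, with a median difference of 0.020, where 32.6% of all genes were higher and 33.6% lower. With the GC trend removed 34 were higher and 32 lower, beside 29.2% and 31% of all genes. The same shares of all genes stand beside the counts of each list below. The other tau kinases had the highest median of the 9 lists. The list of Gsk3b regulators, with 5 genes tested and the GSK3-beta target Ctnnb1 among them, had the lowest, at -0.12. In the lists below, a gene named with only its deposited difference kept its direction and call with the GC trend removed, within 1.5 times of that difference.

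Of the other tau kinases, 24 of 25 listed were tested, and 15 were higher, 4 lower and 5 not past the threshold, with a median of 0.19. Brsk1, a kinase of neuronal polarity, was higher by 0.98 (adjusted p = 6.05e-12), and Mark2, which phosphorylates the repeats by which tau binds microtubules, by 0.71 (adjusted p = 1.17e-08), and both groups of libraries were fully separated in each. Gsk3a was higher by 0.19 (adjusted p = 0.0441) as deposited and stood at -0.067 (adjusted p = 0.347) with the GC trend removed. Its call was also lost with the Wilcoxon test, median centring, quantile normalization, the depth covariate and the replicate block (adjusted p from 0.0537 to 0.173). It was lost as well without sham 3, 4, 5, 6 or 7 or without HF-HI 1, 2, 3, 4, 5, 6, 7, 10 or 11, each left out alone, where the difference was 0.15 to 0.20. With the GC trend removed the list had 13 higher and 3 lower genes.

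Regulators of the 2 kinases were less complete in the table. In the list of Cdk5 activators and regulators, which also holds related kinases such as Cdk17, 5 of 12 were tested. Of these 1 was higher and 1 lower, or 1 and 3 with the GC trend removed. Cdk5r2, which encodes p39, the other activator of CDK5, was higher by 1.10 (adjusted p = 9.62e-09, and 0.72 with the GC trend removed), without overlap, while the related kinase Cdk17 was lower, with a difference of -0.31 (adjusted p = 1.15e-06). In the list of Gsk3b regulators, which also holds the GSK3-beta target Ctnnb1, 5 of 12 were tested, 1 higher and 3 lower, or 0 and 3 with the GC trend removed. Ctnnb1, beta-catenin, which GSK3-beta marks for destruction, was lower at -0.28 (adjusted p = 1.29e-06), and Akt2 was higher by 0.20 (adjusted p = 0.00168) as deposited and stood at 0.031 (adjusted p = 0.625) with the GC trend removed.

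Among the other microtubule-associated proteins, 16 of 21 were tested, 10 higher and 2 lower, or 7 and 2 with the GC trend removed, with a median of 0.15 as deposited. Crmp1, a tubulin-binding protein of axon guidance, was higher by 0.87 (adjusted p = 2.34e-09), and Map7d1 by 0.54 (adjusted p = 3.0e-06), which became 0.19 with the GC trend removed. Proteins at the microtubule ends had 14 of 16 tested, 6 higher and 4 lower, and were led by Mapre2, an end-binding protein, at 0.79 (adjusted p = 3.02e-08) and Clip3 at 0.50 (adjusted p = 3.62e-05). The 4 stathmins, which bind free tubulin, split, with Stmn2 higher by 0.70 (adjusted p = 9.99e-11) and Stmn4 lower at -0.35 (adjusted p = 1.12e-05).

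The tau phosphatase list held subunits of PP2A, PP1 and calcineurin, together with Ppp5c and Ptpa. It had 15 of 16 tested, with 4 higher, 7 lower and a median of -0.081. With the GC trend removed 4 were higher and 6 lower, with a median of 0.015. Ppp2r2c, a brain subunit of PP2A, was higher by 0.35 (adjusted p = 1.32e-06, and 0.21 with the GC trend removed) and Ppp3r1, the regulatory subunit of calcineurin, by 0.28 (adjusted p = 4.9e-05). Chaperones and turnover factors of tau had 3 higher and 3 lower of 8 tested as deposited and 2 higher and 5 lower with the GC trend removed, among them Dnajc7 at 0.81 (adjusted p = 9.78e-08) and the chaperone Hsp90ab1 at 0.69 (adjusted p = 8.88e-11). Enzymes that modify tubulin or sever microtubules had 8 of 17 tested, 0 higher and 2 lower, or 0 and 5 with the GC trend removed. Ttll7, a tubulin polyglutamylase, was at -0.23 (adjusted p = 9.51e-05, and -0.13 with the GC trend removed) and Spast, spastin, at -0.16 (adjusted p = 3.55e-04), or -0.079 (adjusted p = 0.0499) with the GC trend removed.

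**Figure D5:**
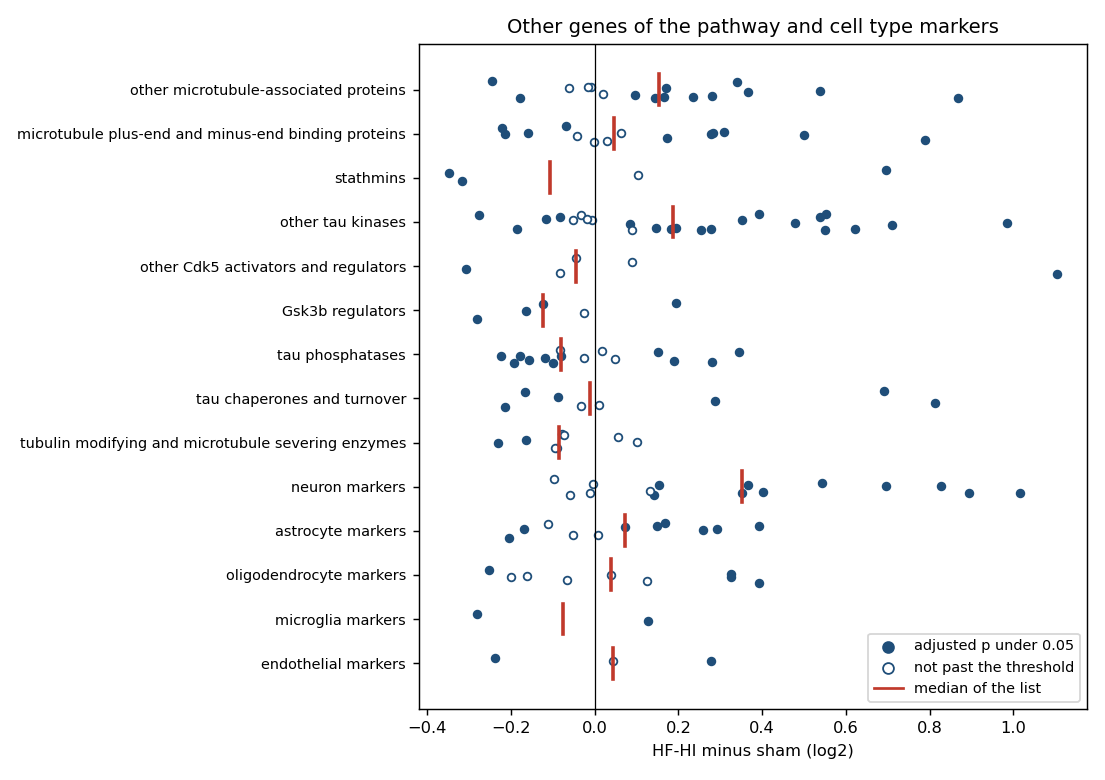
Difference between HF-HI and sham (log2, horizontal axis) of each tested gene in 9 lists of further pathway genes and 5 lists of cell type markers, with filled points past an adjusted p of 0.05, open points not past it and a red line at the median of each list. The other tau kinases have a median of 0.19 and neuron markers of 0.35, the highest of the 14 lists. Tau phosphatases and tubulin-modifying enzymes lie around a median just below 0, which for the phosphatases is 0.015 with the GC trend removed.

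Many markers of neurons, in which most of the 9 genes are mainly made, were higher. The 9 genes themselves moved both ways, 7 higher and 2 lower. All 15 neuron markers were in the table, 10 of them higher and 0 lower, or 10 and 1 with the GC trend removed, and their mean level ran from 11.39 to 11.55 in sham and from 11.77 to 11.92 in HF-HI, without overlap. Tbr1 was higher by 1.02 (adjusted p = 8.76e-09) and Slc17a7, the vesicular glutamate transporter, by 0.89 (adjusted p = 8.88e-11). These 2 were the largest rises of the list, whose median was 0.35, or 0.23 with the GC trend removed. Not every marker of the list rose. As deposited, 5 of its 15 markers did not pass, and its lowest difference was -0.097. Whether the neuron share of the samples takes part in the differences was not tested, and in RNA from whole tissue fewer cells of a type and less RNA per cell cannot be told apart.

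Of 11 astrocyte markers tested of 12, 6 were higher and 2 lower, or 4 and 3 with the GC trend removed, with Gja1 at 0.39 (adjusted p = 5.82e-05) and Gfap at 0.29 (adjusted p = 0.0258), and their mean level was 11.53 to 11.74 in sham and 11.62 to 11.75 in HF-HI. Gfap did not pass with the GC trend removed (0.19, adjusted p = 0.155), without sham 10 (0.26, adjusted p = 0.0503) or without HF-HI 8 (0.25, adjusted p = 0.0508). Oligodendrocyte markers, 9 of 12 tested, had 3 higher and 1 lower, or 2 and 2 with the GC trend removed, with Mbp at 0.39 (adjusted p = 3.94e-04) and Cldn11 at 0.33 (adjusted p = 0.00201), and mean levels of 10.65 to 11.34 in sham and 10.61 to 11.31 in HF-HI. Of the microglia markers, Csf1r was at 0.13 (adjusted p = 0.0184), which was -0.0038 with the GC trend removed. Endothelial markers were tested for 3 of 10, Flt1 at 0.28 (adjusted p = 3.76e-06) and Slco1a4 at -0.24 (adjusted p = 2.44e-05, and -0.10 with the GC trend removed) past the threshold, with mean levels of 8.94 to 9.23 and 9.05 to 9.20.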

How the data were processed

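Cortical RNA of 10 sham mice and 11 HF-HI mice was depleted of ribosomal RNA and made into stranded libraries, pooled 6 at a time. The pool of each library is not given in the sources used here. The authors aligned reads to mm10 with STAR, counted them per transcript with eXpress, and deposited DESeq2 variance-stabilized values on a log2 scale for each Ensembl gene. The versions of STAR and eXpress, the annotation and whether the counting used strand are not given in the sources used here, so reads of overlapping antisense genes may be included. Counts were not analysed here, and the total depth is unknown. Precision rests on the spread between mice (median SD within a group 0.104).

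Symbols, positions, exonic length and GC content came from GENCODE M21 on GRCm38, the assembly of mm10 (5541 genes with a symbol, 5539 with GC content). All 5544 genes were fitted with limma 3.58.1 in R 4.3.3 (lmFit, eBayes with trend, two-sided, Benjamini-Hochberg, 0.05). The GC trend was removed from each library by lowess (span 0.3). Pairs were tested by permutation in Python 3.11.15 with scipy 1.17.1. The fit was tested on simulated data. Level per kilobase is the value minus log2 of exonic kilobases. No libraries held identical values.

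The genes, lists and pairs were chosen with earlier results of these data known. Named beyond the 9 genes were, per list, the 2 past the threshold with the largest absolute difference, the genes closest to each of the 9 by correlation (5 for Mapt, 1 for the others) and both genes of each pair. A microglia marker that this rule names is not reported here. The alternatives were a threshold of 0.1, a minimum absolute difference of 0.25, eBayes without trend, the Wilcoxon test, median centring, quantile normalization, a filter on the lowest quartile, GC or GC and length trends removed, relative depth as a covariate, the replicate number as a block with and without GC removal, and each library left out in turn.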

Additional observations from a re-analysis of the deposited data

Results flagged for a closer look

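Among 60 sets of 10 sham values examined for a library apart from the rest, 3 had one, where chance would give about 1 in 20. Cdk5 minus Mapt was -3.26 in sham 3, with the next lowest at -3.10. Without that library the difference between groups stayed past the threshold. Gfap was 9.26 in sham 4, with the next highest at 8.85. The mean of the list of other Cdk5 activators and regulators was 9.80 in sham 4, with the next lowest at 9.90. The 11 HF-HI values were not examined in this way.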

How the results depend on the processing

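All 9 genes passed in every one of the 189 results that left out 1 library (9 genes, 21 fits), and in 93 of 108 results under other alternatives they kept their direction and call. Part of that count was fixed in advance. The threshold of 0.1 could not lose a call, and eBayes without trend, the Wilcoxon test and the quartile filter left each difference unchanged. With the GC trend removed, alone, with the length trend or with the replicate block, 6 of the 9 passed each time. With a minimum absolute difference of 0.25 the counts were 4 of the 9 genes, 1433 over all genes, 33 over the pathway lists and 17 over the markers. Mapt turned to -0.014 with the GC and length trends removed. Csf1r turned to -0.0038 with the GC trend removed, -0.017 with the GC and length trends removed and -0.0088 with the replicate block and GC removal, and Gsk3a to -0.067 and -0.074 with the GC trend removed without and with the block. Map1a minus Map1b was 0.16 with quantile normalization, 0.095 with GC and 0.10 with GC and length removed, and 0.25 with the replicate block, and did not pass in any of them. Map2 minus Mapt was -0.043 with GC and -0.081 with GC and length removed, and Map4 minus Mapt 0.092 and 0.057, none past the threshold. Gsk3b minus Gsk3a was 0.18 with the replicate block and no longer passed (adjusted p = 0.162). With 1 library left out, Map1a minus Map1b ran from 0.19 to 0.29, Gsk3b minus Gsk3a from 0.15 to 0.23 and Map4 minus Mapt from -0.028 to 0.0083. The cause of these changes was not tested. The median of all genes was -0.061 after median centring and -0.045 after quantile normalization.

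Of 10 same-numbered pairs of libraries, 4 had a correlation of deviations over 0.1 (r from -0.31 to 0.36) and 0 sham libraries correlated best with their own number. The labels do not say whether the numbers pair mice, and these correlations cannot tell. With the replicate block 3498 genes passed in place of 3674, and all 9 genes still passed.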
